A study of Mus musculus with 16 samples.

Results

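The 6 genes described here encode the fast and slow forms of skeletal muscle troponin: Tnnt3, Tnni2 and Tnnc2 (fast) and Tnnt1, Tnni1 and Tnnc1 (slow). They were taken by gene symbol from both deposited expression tables, and all 6 were found among the 21011 genes of the muscle table and the 38933 genes of the bone table. The samples came from C57BL/6 females treated from 18 months of age with vehicle (VEH) or with BAY2416964 (BAY), an orally active antagonist of the aryl hydrocarbon receptor (AhR). The drug was given by gavage at 30 mg/kg on 5 days a week for 8 weeks. Bulk RNA-seq was run on 1 tibialis anterior (TA) muscle per mouse and on collagenase-digested cortical bone shafts, with 4 libraries per tissue and treatment and 16 in all. The labels give no transgene or deletion, no library of younger mice was analysed here, and no source used here says whether bone and muscle libraries with the same number came from the same mouse.

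Troponin sits on the thin filament and makes contraction depend on calcium. Troponin C binds calcium, troponin I blocks the interaction of actin with myosin until calcium is bound, and troponin T ties the complex to tropomyosin. Slow and fast fibres use different genes for each subunit, so the balance of the 2 sets of transcripts is a common readout of fibre type. The TA of the mouse is made mostly of fast fibres.

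In the genome build of the files (mm39), Tnnt3 lies at chr7:142052573-142069746 on the plus strand and Tnni2 at chr7:141995545-141998147 on the plus strand, so that a fast troponin T gene and a fast troponin I gene lie in 1 region, with other annotated genes between them. Tnnc2 lies at chr2:164619081-164621887 on the minus strand. The slow genes are Tnnt1 (chr7:4507569-4519381, minus strand), Tnni1 (chr1:135707172-135738727, plus strand) and Tnnc1 (chr14:30930269-30933686, plus strand). These are whole gene spans, and the measured reads are from their exons. The CCDS transcripts of the current GENCODE annotation number 37 for Tnnt3 and 7 for Tnnt1, against 1 each for Tnnc2 and Tnnc1, and splice forms were summed in the deposited gene values. In that annotation 4 of the 6 genes overlap a gene on the opposite strand. Tnnc2 shares 616 of its 897 exon bases with Ube2c (101 to 166 CPM in muscle, 7.44 to 48.6 CPM in bone), Tnnt3 shares 221 of 4516 with Prr33 (84.6 to 132 CPM in muscle, 5.75 to 41.1 CPM in bone), and Tnnt1 shares 138 of 2383 with the noncoding gene Gm73143. Tnnc1 lies in the span of Nisch (65.8 to 105 CPM in muscle, 56.8 to 218 CPM in bone) and shares no exon base with it. Whether the counting used strand is not given in the sources used here, so reads from these shared bases cannot be assigned with certainty, which bears most on Tnnc2 at its low bone values.

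A fast to slow ratio needs reads that tell the copies apart, so the most alike stretches are shown. Aligned over 1 CCDS transcript per gene, the coding sequences were 70.2% identical for Tnnt3 and Tnnt1, 67.4% for Tnni2 and Tnni1 and 70.1% for Tnnc2 and Tnnc1. The longest run of identical bases was 16 bases for troponin T, 22 for troponin I and 21 for troponin C, also over the whole transcripts. Each run is in capitals, with 20 bases of its own gene on either side, from GENCODE transcripts on GRCm39.
Tnnt3, coding bases 36 to 91: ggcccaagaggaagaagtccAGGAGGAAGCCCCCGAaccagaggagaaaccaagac
Tnnt1, coding bases 45 to 100: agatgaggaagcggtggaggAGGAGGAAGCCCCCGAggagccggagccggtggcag
Tnni2, coding bases 359 to 420: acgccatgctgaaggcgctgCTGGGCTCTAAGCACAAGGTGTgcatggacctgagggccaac
Tnni1, coding bases 362 to 423: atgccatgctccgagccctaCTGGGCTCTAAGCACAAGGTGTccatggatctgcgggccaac
Tnnc2, coding bases 34 to 94: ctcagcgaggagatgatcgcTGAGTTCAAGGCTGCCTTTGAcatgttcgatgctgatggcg
Tnnc1, coding bases 34 to 94: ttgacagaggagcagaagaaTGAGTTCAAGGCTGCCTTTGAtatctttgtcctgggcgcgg

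BAY acts on a transcription factor, so the promoters were read for its core motif and for motifs of muscle factors. Of the 6 genes, 4 had an entry in the RefSeq promoter table (build GRCm38.p6): Tnnt1, Tnni1, Tnnc1 and Tnnc2. The 250 bases before the annotated start are shown 5′ to 3′ in the direction of the gene, and for Tnni1 before the first of its starts. Capitals mark E-boxes (CANNTG, the element of MyoD family factors), the MCAT element (CATTCC, read here on the other strand) of TEAD factors, and TATAAA.
Tnnt1, chr7:4515976-4516225, minus strand: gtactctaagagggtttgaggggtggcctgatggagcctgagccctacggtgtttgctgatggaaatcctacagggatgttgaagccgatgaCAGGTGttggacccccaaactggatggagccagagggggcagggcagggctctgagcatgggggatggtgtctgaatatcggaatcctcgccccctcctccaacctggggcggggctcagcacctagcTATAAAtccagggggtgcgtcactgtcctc
Tnni1, chr1:135799171-135799420, plus strand: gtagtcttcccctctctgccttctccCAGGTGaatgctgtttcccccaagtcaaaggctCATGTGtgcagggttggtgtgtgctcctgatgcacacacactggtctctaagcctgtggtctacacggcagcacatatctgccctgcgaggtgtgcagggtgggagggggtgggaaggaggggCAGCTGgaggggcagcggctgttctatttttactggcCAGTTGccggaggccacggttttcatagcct
Tnnc1, chr14:31208062-31208311, plus strand: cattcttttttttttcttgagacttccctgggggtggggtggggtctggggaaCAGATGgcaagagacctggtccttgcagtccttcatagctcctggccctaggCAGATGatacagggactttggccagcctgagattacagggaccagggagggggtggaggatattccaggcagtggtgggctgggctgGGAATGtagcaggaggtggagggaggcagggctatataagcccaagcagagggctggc
Tnnc2, chr2:164779735-164779984, minus strand: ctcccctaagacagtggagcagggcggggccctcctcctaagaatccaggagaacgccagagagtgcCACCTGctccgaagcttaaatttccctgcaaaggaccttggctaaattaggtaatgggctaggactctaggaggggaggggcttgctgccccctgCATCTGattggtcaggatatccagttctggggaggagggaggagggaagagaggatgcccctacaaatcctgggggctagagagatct
On both strands, E-boxes were found in all 4 windows: 1 in Tnnt1, 4 in Tnni1, 2 in Tnnc1 and 2 in Tnnc2. Of 32851 promoter windows of the same length, 66.2% held an E-box, so its presence does not set these genes apart. The MCAT element, in 12.6% of all windows, was found in Tnnc1, and TATAAA, in 12.4% of all windows, in Tnnt1 with its first base 30 bases before the start. The AhR core GCGTG, in 28.2% of all windows, was found in none of the 4, which says only that these letters are not in these windows.

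Levels are given as CPM (read counts scaled to a common library total), recovered from the deposited log2 values by removing the offset. Reads on genes numbered 6131921 to 9262388 per muscle library and 930306 to 6951916 per bone library, so 3 reads correspond to at most 0.489 CPM in muscle and 3.22 CPM in bone. Intervals from counts cover counting error only. With 4 libraries a group, the exact permutation P values rest on the values of these libraries alone. The limma P values, SEs and intervals also draw on the variance of other genes of similar level, so they are not the spread between these libraries. In the muscle libraries the skeletal muscle markers were abundant, with creatine kinase Ckm at 4383 to 5668 CPM, and the osteocyte marker Dmp1 was at 0 to 0.648 CPM. In the bone libraries the levels of muscle and bone cell markers differed widely, and those values stand beside the bone results.

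In muscle the fast genes stood far above the slow ones in every library, BAY and VEH overlapped for each gene, and the slow genes varied most among the VEH mice. Fast troponin T, Tnnt3 (ENSMUSG00000061723), was at 3792, 4362, 4395 and 4501 CPM in VEH replicates 1 to 4 and at 4204, 4303, 3892 and 5771 CPM in BAY replicates 1 to 4. The groups overlapped, and BAY replicate 4 was above every other library. The means were 4263 ± 319 CPM for VEH and 4543 ± 838 CPM for BAY (SD, n = 4 each). The log2 fold change from BAY minus VEH was 0.08 ± 0.28 (SE) with an adjusted P of 0.96 in limma's moderated test over all genes, and the exact permutation test of the log2 values gave P = 0.771. The 95% interval ran from 0.696-fold to 1.60-fold. Voom on recovered reads gave smaller SEs for the fast genes: 0.12 for Tnnt3, 0.13 for Tnni2 and 0.15 for Tnnc2.

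Fast troponin I, Tnni2 (ENSMUSG00000031097), the inhibitory subunit of fast fibres, was at 2892, 2999, 2806 and 3174 CPM in VEH and at 3059, 3449, 2709.9 and 4741 CPM in BAY. BAY replicate 4 was again the highest library and BAY replicate 3 the lowest, so the VEH values lay within the range of BAY. The log2 fold change was 0.20 ± 0.26 (limma adjusted P = 0.816, exact permutation P = 0.343).

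Fast troponin C, Tnnc2 (ENSMUSG00000017300), the calcium sensor of fast fibres, was at 3784, 4202, 4150.0 and 4040.2 CPM in VEH and at 3884, 3982, 3263 and 6783 CPM in BAY. The same BAY library was the highest and the same one the lowest. On the log2 scale BAY minus VEH was 0.09 ± 0.30 (limma adjusted P = 0.954, exact permutation P = 0.914). Per kb of exon, the order of the fast genes by mean level was Tnnc2, Tnni2 and Tnnt3 in both groups. Tnni2 and Tnnt3 lay close together: per kb, VEH had 3776 ± 202 CPM for Tnni2 and 3634 ± 272 CPM for Tnnt3, within each other's SD.

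The slow genes were far lower. Slow troponin T, Tnnt1 (ENSMUSG00000064179), was at 2.44, 12.1, 18.2 and 5.37 CPM in VEH, from 21, 87, 169 and 45 reads. In BAY it was at 7.43, 5.87, 5.81 and 6.87 CPM, from 54, 36, 45 and 49 reads. All 4 BAY libraries lay inside the VEH range, and the SD was 7.08 CPM in VEH against 0.792 CPM in BAY. BAY minus VEH on the log2 scale was -0.18 ± 0.46 (limma adjusted P = 0.92, permutation test exact P = 0.829).

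Slow troponin I, Tnni1 (ENSMUSG00000026418), was at 0.582, 2.93, 5.83 and 1.19 CPM in VEH and at 1.51, 0.326, 1.29 and 3.09 CPM in BAY. The groups overlapped, and the lowest value, in BAY replicate 2, rests on 2 reads, and the highest, in VEH replicate 3, on 54. The fitted log2 difference was -0.65 ± 0.75 (limma adjusted P = 0.796, exact permutation P = 0.6), with a 95% interval from 0.207-fold to 1.96-fold.

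Slow troponin C, Tnnc1 (ENSMUSG00000091898), which the heart also uses, was at 0.233, 6.55, 6.80 and 1.19 CPM in VEH and at 3.03, 0.652, 3.74 and 4.07 CPM in BAY. VEH replicate 1 had 2 reads and BAY replicate 2 had 4. All 4 BAY libraries lay within the VEH range. The fitted log2 difference was 0.32 ± 0.93 (limma adjusted P = 0.935, permutation test exact P = 0.829). Per kb, the order of the slow genes by mean level was Tnnt1, Tnnc1 and Tnni1 in both groups, with SDs in VEH that covered the gaps between neighbours.

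Of the 6 troponin genes, 0 were called between BAY and VEH in muscle by limma, with a call defined as an unadjusted P under 0.05 and a fold of at least 2. At an unadjusted P under 0.05 alone the number was also 0, and voom on recovered reads likewise called 0 of 6, beside 3.33% of all genes. Of all muscle genes, 2.43% were called by limma and 9.79% had an unadjusted P under 0.05. The groups overlapped for all 6 genes, while 5.73% of all genes had groups that did not overlap. The median log2 fold change of the 6 was 0.08, beside 0.06 over all genes. The exact test with 4 against 4 cannot give a P below 0.0286.

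**Figure D1:**
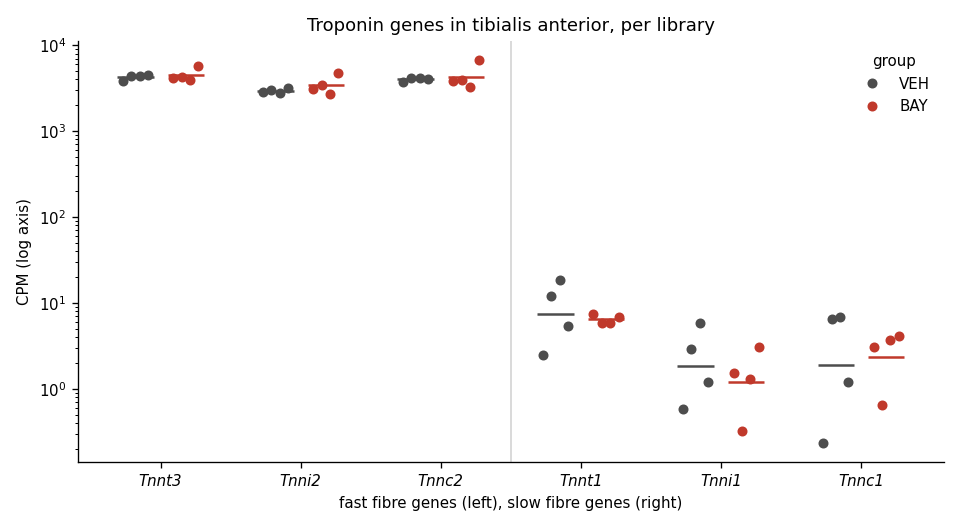
CPM of the 6 troponin genes in each TA library on a log axis, VEH in grey and BAY in red, with horizontal bars at the geometric mean of each group (n = 4). The fast genes on the left sit between 2709.9 and 6783 CPM, and the slow genes on the right sit between 0.233 and 18.2 CPM, with overlapping groups for every gene.

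The ratio of fast to slow transcript was formed within each muscle library, as CPM per kb of the fast gene over that of the slow gene, which removes differences in depth. For troponin T (Tnnt3/Tnnt1) it was 1399, 324, 217 and 756 in VEH and 510.3, 661, 605 and 758 in BAY. The BAY libraries lay within the VEH range and spread over a narrower interval. On the log2 scale the means were 9.03 ± 1.21 for VEH and 9.29 ± 0.24 for BAY (SD, n = 4), a difference of 0.26 (two-sided exact permutation P = 0.657). The 95% interval of the difference, from inverting that test, was -1.45 to 1.80.

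For troponin I (Tnni2/Tnni1) the ratio was 6834, 1409, 662 and 3660.1 in VEH. In BAY it was 2779, 14542, 2889 and 2113, and the value of 14542 in BAY replicate 2 rests on 2 reads of Tnni1, with a counting interval from 4025 to 120085. VEH replicates 2 and 3 were below every other library. The log2 means were 11.10 ± 1.49 and 11.95 ± 1.27, a difference of 0.85 (exact permutation P = 0.4, interval -1.69 to 4.45). Without BAY replicate 2 the difference was 0.23 (exact permutation P = 0.8).

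For troponin C (Tnnc2/Tnnc1) the ratio was 15585, 615, 585 and 3247 in VEH and 1230.1, 5853, 836 and 1599 in BAY. The highest, in VEH replicate 1, rests on 2 reads of Tnnc1 and has a counting interval from 4314 to 128699. The log2 means were 11.01 ± 2.26 for VEH and 10.78 ± 1.22 for BAY, a difference of -0.23 (exact permutation P = 0.886, interval -4.21 to 3.32). With adjustment over the 6 ratio tests of both tissues, the smallest adjusted P in muscle was 0.8. These intervals hold differences of severalfold in either direction, so the data bound a shift of the troponin balance only loosely.

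**Figure D2:**
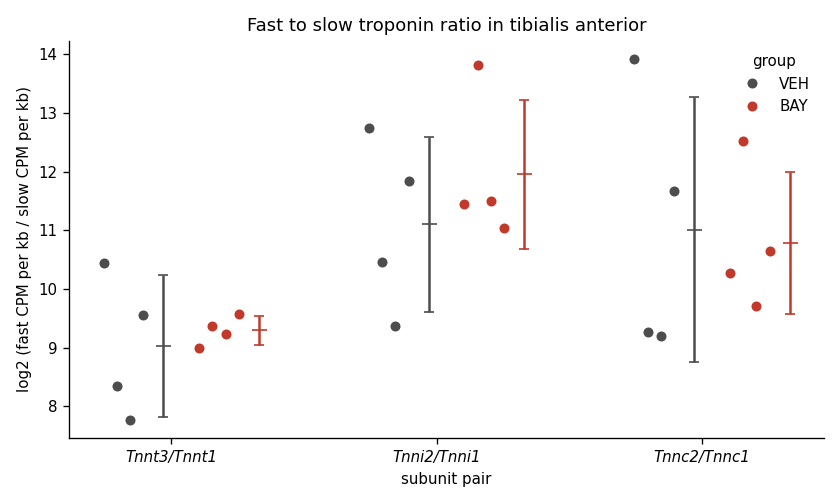
Log2 ratio of fast to slow troponin, each as CPM per kb of exon, in every TA library for the 3 subunit pairs, with the mean and SD of each group beside the points (n = 4). The BAY points of Tnnt3/Tnnt1 lie between 9.0 and 9.57 and the VEH points between 7.76 and 10.45.

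Summed over the subunits, the slow genes made up 0.0265%, 0.177%, 0.249% and 0.0591% of troponin transcript per kb in VEH and 0.0998%, 0.0506%, 0.107% and 0.0750% in BAY. The BAY libraries lay within the VEH range. VEH replicate 3, with the highest slow share, also had the highest level of fast oxidative myosin Myh2 (5241 CPM, against 808 to 1983 CPM in the other 7 libraries) and of the summed adipocyte markers (320.1 CPM, against 38.2 to 56.1 CPM). All 5 adipocyte markers were in the table, with Adipoq or Cidec at 0 in some libraries. The osteoblast and osteocyte markers in the muscle table (4 of 10) summed to 149 CPM there, against 22.3 to 45.3 CPM in the other 7, the leukocyte markers (3 of 5) to 28.3 CPM against 6.56 to 15.2 CPM, and the 3 Schwann cell markers to 31.7 CPM against 11.2 to 24.4 CPM. The part of these cell types in the slow troponin values was not tested. The deposited column of this library is named as a replacement, with no further word in the sources used here. Without that library the difference in Tnnt3/Tnnt1 turned to -0.16 (exact permutation P = 0.8).

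Slow subunits correlated across the 8 muscle libraries. On log2 values, Pearson's r was 0.78 between Tnnt1 and Tnni1 (Spearman's rho 0.79), 0.87 between Tnnt1 and Tnnc1 (rho 0.83) and 0.86 between Tnni1 and Tnnc1 (rho 0.93). Over the 6 correlations computed in muscle, the adjusted permutation P values of these 3 were 0.025, 0.0102 and 0.0102 for r and 0.0419, 0.0308 and 0.0134 for rho. Without the 2 libraries farthest from the median of the first gene, r was 0.58, 0.69 and 0.89 (n = 6).

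Among the fast subunits, BAY replicate 4 was the highest library for all 3 genes, and the correlations by value were higher than those by rank. Pearson's r was 0.90 between Tnnt3 and Tnni2, 0.95 between Tnnt3 and Tnnc2 and 0.92 between Tnni2 and Tnnc2 (adjusted permutation P = 0.0188, 0.0102 and 0.0188). The ranks gave rho = 0.57, 0.88 and 0.52 (adjusted permutation P = 0.181, 0.0217 and 0.197). Without the 2 farthest libraries, BAY replicate 4 being 1 of them, r was 0.51, 0.93 and 0.60. Only the pair of Tnnt3 and Tnnc2 was past 0.05 by both measures among the 3 fast pairs. Levels within 1 library share its depth and the same total, so these genes are not independent readings.

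The slow myosin heavy chain Myh7, which marks slow fibres, was at 7.05, 178, 227 and 28.2 CPM in VEH and at 103, 38.7, 88.3 and 121 CPM in BAY. VEH replicate 1 was lowest and VEH replicate 3 highest for Myh7 as for Tnnt1. Of the 7 slow fibre genes outside troponin, 0 were called in muscle, and 1, the slow myosin light chain Myl3, had an unadjusted P under 0.05, as did 9.79% of all muscle genes. Myl3 was at 11.1, 9.20, 11.1 and 12.6 CPM in VEH and at 14.2, 15.5, 15.0 and 15.3 CPM in BAY. The groups did not overlap, as for 5.73% of all muscle genes, with a log2 fold change of 0.45 ± 0.15 (limma adjusted P = 0.349, exact permutation P = 0.0286, the smallest that test can give). The slow list as a whole had 3 genes higher and 4 lower in BAY and a median log2 fold change of -0.09.

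Of the 11 fast fibre genes outside troponin, 0 were called, with 6 higher and 5 lower and a median of 0.07. The fast myosin Myh4 had its highest value, 118579.9 CPM, in BAY replicate 4, against 60168 to 84146 CPM in the other 7 libraries. In all, 7 of the 11 were highest in BAY replicate 4, the library that was highest for the fast troponins: Myh4, Actn3, Mybpc2, Mylpf, Casq1, Atp2a1 and Myoz1. Myh1, Myh2, Myl1 and Pvalb were not. In BAY replicate 4 Myh1 was at 18140 CPM, below BAY replicate 2 (19789 CPM), Myh2 was highest in VEH replicate 3, and the fast light chain gene Myl1 was at its lowest of the 8 libraries (1004 CPM). Of the 12 thin filament partners of troponin (among them actins, tropomyosins, nebulin, tropomodulins and leiomodins) 0 were called, with 7 higher and 5 lower. The tropomyosin gene Tpm3, whose muscle form belongs to slow fibres, was lowest in VEH replicate 1 (11.5 CPM) and highest in VEH replicate 3 (36.8 CPM). Among the 12 regulators of fibre type 0 were called, with 6 higher and 6 lower and a median log2 fold change of -0.01. Rcan1 was the lowest by log2 fold change (-0.34) and Nfatc1 the highest. Nfatc1, a calcineurin-dependent factor that favours the slow programme, had means of 54.5 ± 10.2 CPM in VEH and 70.6 ± 5.96 CPM in BAY (log2 fold change 0.39 ± 0.14, limma adjusted P = 0.404, exact permutation P = 0.0571).

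The cardiac troponin genes were low in muscle, and 1 of the 2 was called by limma and by voom, beside 2.43% and 3.33% of all muscle genes. Cardiac troponin T, Tnnt2, was at 1.40 to 4.10 CPM in VEH and 0.979 to 4.49 CPM in BAY. Cardiac troponin I, Tnni3, was listed at 0, 0, 0.108 and 0 CPM in VEH and at 0.138, 0.652, 0.387 and 0.14 CPM in BAY. It met the rule for a call (limma unadjusted P = 0.0133, adjusted P = 0.39), but 1 read is worth 0.108 to 0.163 CPM in these libraries, so the call rests on 0 or 1 reads against 1 to 4. Its fold change depends on the offset added before the log and is not given.

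**Figure D3:**
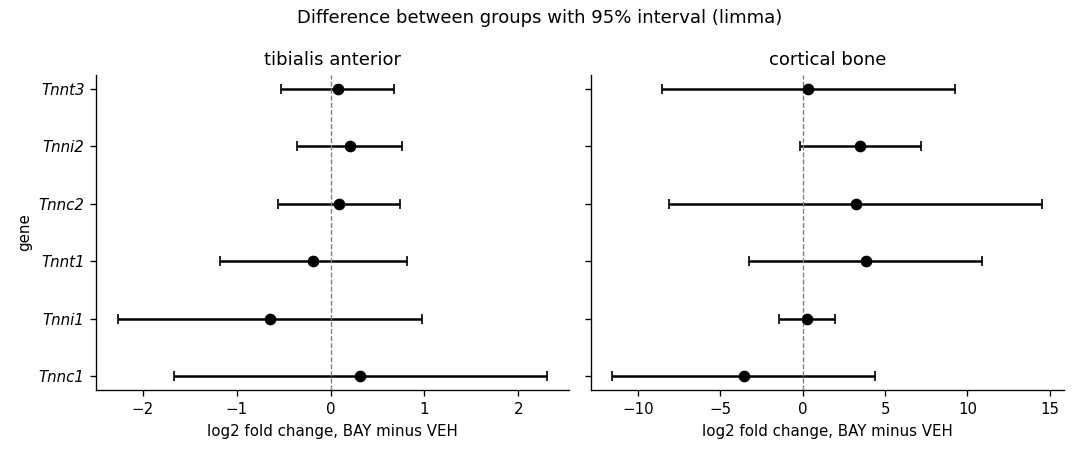
Log2 fold change, BAY minus VEH, of each troponin gene with its 95% interval from limma, in TA (left) and cortical bone (right, with a wider axis). Every interval includes 0, and in bone the interval for Tnnc2 runs from -8.14 to 14.55.

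In bone the fast troponins were highest in the libraries with the most muscle marker transcript, and these markers did not divide the libraries by treatment. The 6 skeletal muscle fibre markers summed to 17804, 1550.3, 307 and 511 CPM in VEH replicates 1 to 4 and to 45751, 50828, 2569 and 1009 CPM in BAY. Most of each sum was Ttn, at 16846, 1474, 283 and 478 CPM in VEH and at 42421, 47184, 2423 and 953 CPM in BAY. The 10 osteoblast and osteocyte markers summed to 7171, 1449, 30065 and 22217 CPM in VEH and to 1957, 1683, 22008 and 2212 CPM in BAY. The osteocyte gene Sost was at 14.1 CPM in BAY replicate 2 and at 898 CPM in VEH replicate 3. Muscle markers were thus highest in BAY replicates 1 and 2 and in VEH replicate 1, and bone markers were low in VEH replicate 2 and BAY replicate 4 as well. In bulk tissue, fewer cells of a type and less RNA per cell cannot be told apart.

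The 4 libraries with the most muscle marker transcript were also the 4 highest for each fast troponin. Tnnt3 was at 326, 4.60, 2.48 and 0.728 CPM in VEH and at 1176, 1341 and 43.8 CPM in BAY replicates 1 to 3, and it was listed at 0 in BAY replicate 4. Tnni2 was at 315, 12.0, 1.42 and 7.28 CPM in VEH and at 1187, 1303, 43.3 and 9.67 CPM in BAY. Tnnc2 was at 705, 12.9 and 4.61 CPM in VEH replicates 1 to 3 and listed at 0 in replicate 4, and at 1849, 2179, 75.3 and 0 CPM in BAY. For all 3 genes the order of the 4 highest libraries was BAY replicate 2, BAY replicate 1, VEH replicate 1 and BAY replicate 3, which was also their order in summed muscle markers. Among the other 4 libraries Tnni2 kept the order of the markers, and Tnnt3 and Tnnc2 did not. In VEH replicate 1 and BAY replicates 1 to 3 the fast troponin sum was 6.32% to 9.49% of the muscle marker sum. In VEH replicates 2 to 4 and BAY replicate 4 it was 0.958% to 2.77%.

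Although BAY replicates 1 and 2 were far above the other BAY libraries, the groups overlapped for each fast gene. The log2 fold change was 0.34 ± 4.11 for Tnnt3, 3.51 ± 1.71 for Tnni2 and 3.21 ± 5.25 for Tnnc2 (limma adjusted P = 1.00, 0.887 and 0.887). The exact permutation test gave P = 1, 0.2 and 0.543. Libraries listed at 0 set the values of Tnnt3 and Tnnc2: without BAY replicate 4 their log2 fold changes were 5.83 and 8.88 and both met the rule for a call, as did Tnni2 with 4.85, beside 0.48% of all genes. Tnni2 also met it without VEH replicate 1 (5.0, beside 0.673% of all genes) and without BAY replicate 3 (4.13, beside 0.655%). The part of muscle transcript in these values was not tested. A library listed at 0 allows up to 3 reads, which is 2.18 CPM in VEH replicate 4 and 3.22 CPM in BAY replicate 4.

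**Figure D4:**
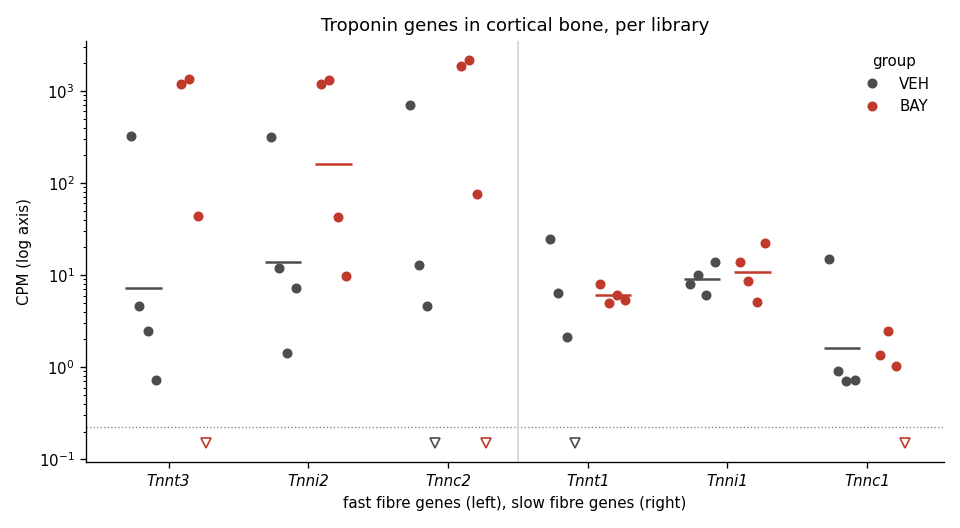
CPM of the 6 troponin genes in each bone library on a log axis, VEH in grey and BAY in red, with bars at the geometric mean where no library was at 0 (n = 4). Open triangles below the dotted line are libraries listed at 0, and the fast genes span from there to 2179 CPM while Tnni1 stays between 5.09 and 22.6 CPM.

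The slow genes behaved differently in bone. Tnni1 was at 7.91, 10.1, 6.02 and 13.8 CPM in VEH and at 13.9, 8.68, 5.09 and 22.6 CPM in BAY, from 10 to 55 reads. Its highest values were in BAY replicates 4 and 1 and VEH replicate 4, so it did not follow the muscle markers, and it spanned 4.43-fold over the 8 libraries where Tnni2 spanned 919-fold. The log2 fold change was 0.26 ± 0.79 (limma adjusted P = 0.949, exact permutation P = 0.657). Tnni1 was also the 1 member with more CPM in every bone library than its median in muscle, 1.40 CPM, although the 2 tissues were prepared and tabulated separately and were not tested against each other. The median log2 level over all genes was likewise higher in 7 of the 8 bone libraries than in any muscle library, and within bone it was highest in BAY replicate 4, where Tnni1 was highest too.

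Tnnt1 was at 24.6, 6.44, 2.13 and 0 CPM in VEH and at 8.05, 4.96, 6.11 and 5.37 CPM in BAY. VEH replicate 1 stood above the rest, with 171 reads. The log2 fold change was 3.81 ± 3.26 (limma adjusted P = 0.887, exact permutation P = 0.686), and without VEH replicate 4, the library at 0, it was -0.21. Tnnc1 was at 15.0, 0.921, 0.709 and 0.728 CPM in VEH and at 1.34, 2.48, 1.02 and 0 CPM in BAY, where 5 of the 8 libraries had 1 to 3 reads. Its log2 fold change was -3.59 ± 3.69 (limma adjusted P = 0.887, exact permutation P = 0.571), and without BAY replicate 4, the library at 0, it was -0.12.

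VEH replicate 1 was thus the library with the highest Tnnt1 and Tnnc1, although BAY replicates 1 and 2 had more of every fast subunit. Slow myosin Myh7 was at 384 CPM in that library and at 15.2 to 47.0 CPM in the other 7. The fast oxidative myosin Myh2 was at 1762 CPM there beside 1967 CPM of Myh4, whereas BAY replicates 1 and 2 had 2439 and 2281 CPM of Myh2 beside 12905 and 14461 CPM of Myh4. The slow troponins Tnnt1 and Tnnc1 were thus highest in the library with the highest slow myosin, and the proportion of Myh2 to Myh4 differed among the libraries rich in muscle markers.

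Of the 6 troponin genes, 0 were called in bone by limma, at the rule for a call and at an unadjusted P under 0.05 alone, where 0.64% of all bone genes were called. Voom on recovered reads called 0 of 6, beside 3.68% of all genes. The calls of the fast genes depended on the offset and the fit. On log2(CPM + 1) limma called all 3 (unadjusted P = 0.000645 for Tnnt3, 7.8e-05 for Tnni2 and 0.000854 for Tnnc2), beside 0.501% of all genes. Tnni2 was also called on log2(CPM + 0.1) and with array weights, beside 0.519% and 2.31% of all genes. The groups overlapped for all 6, while 0.406% of all bone genes had groups that did not overlap. Of the 6, 5 were higher in BAY and 1 lower. The median of their log2 fold changes was 1.77, and over all genes it was 0.84, so most bone genes had higher log2 values in BAY. The median log2 level over all genes was lowest in VEH replicate 1 (-0.80) and highest in BAY replicate 4 (3.85).

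Each fast to slow ratio in bone was higher in the 4 libraries richest in muscle markers than in the others where it could be formed, though within those 4 the order was not always that of the markers. For Tnni2/Tnni1, the 1 pair with reads in all 8 libraries, it was 54.7, 1.63, 0.324 and 0.724 in VEH and 118, 206, 11.7 and 0.589 in BAY. It was under 1 in 3 libraries, with counting intervals of 0.0792 to 0.992 in VEH replicate 3, 0.301 to 1.64 in VEH replicate 4 and 0.238 to 1.34 in BAY replicate 4, so in the latter pair the counts do not tell which gene was the more abundant per kb. In the 4 libraries rich in muscle markers the fast gene led. The difference in the log2 ratio was 3.24 (exact permutation P = 0.257, interval -6.53 to 9.31). In the 4 libraries with the lowest muscle marker sums the ratio was 0.324 to 1.63, whereas TA libraries had at least 662. Those 4 bone libraries had 4 to 13 reads of Tnni2 and 11 to 21 of Tnni1. Their log2 values were 0.50 to 3.58 for Tnni2 and 2.59 to 4.50 for Tnni1. The median over all genes was 1.67 to 3.85 in the same libraries, so both genes lay near the level of the median gene.

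Tnnt3/Tnnt1 was 12.0, 0.644 and 1.05 in VEH replicates 1 to 3 and 132, 244 and 6.46 in BAY replicates 1 to 3. Tnnc2/Tnnc1 was 45.2, 13.4 and 6.23 in VEH replicates 1 to 3 and 1322, 842 and 70.9 in BAY replicates 1 to 3. Of these the troponin C ratios in VEH replicates 2 and 3 and BAY replicates 1 and 3 rest on 1 to 3 reads of Tnnc1, with counting intervals of 2.04 to 568, 1.41 to 56.9, 452 to 6412 and 19.3 to 591. In replicate 4 of both groups a gene of each of these pairs was listed at 0, and no ratio is given. With the deposited offset in place of those zeros, the exact permutation tests gave P = 0.686 for troponin T and P = 0.2 for troponin C. The smallest adjusted P over the 6 ratio tests was 0.771.

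**Figure D5:**
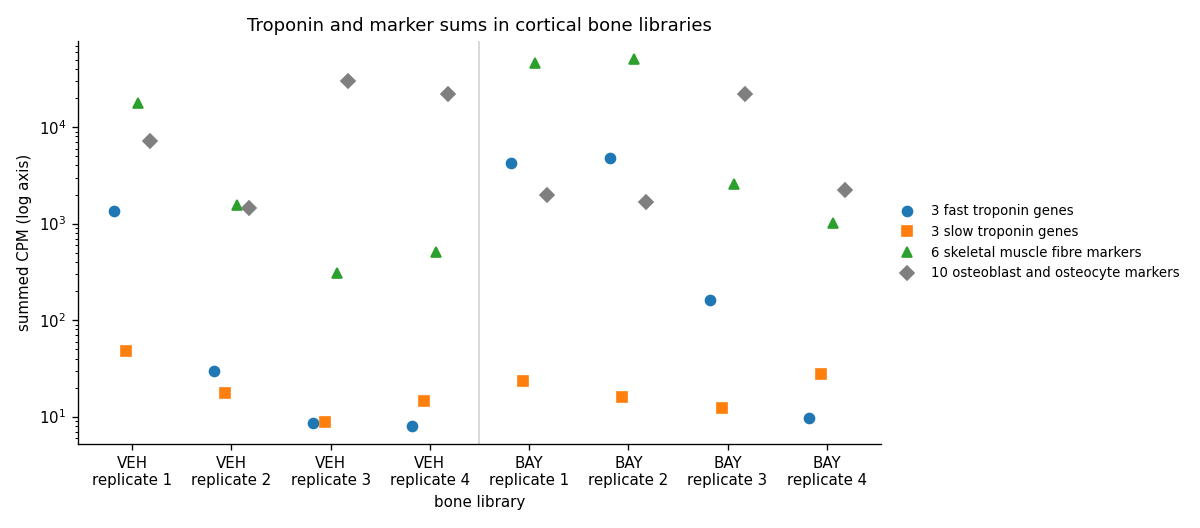
Summed CPM per bone library on a log axis for the 3 fast troponin genes, the 3 slow troponin genes, 6 skeletal muscle fibre markers and 10 osteoblast and osteocyte markers. The fast troponin sum and the muscle markers are both highest in BAY replicate 2 (4822 CPM for the fast troponins), whereas the fast sum is lowest in VEH replicate 4 (8.01 CPM) and the muscle markers in VEH replicate 3 (307 CPM). The slow sum stays between 8.86 and 47.5 CPM.

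The proportions of the subunits were compared in libraries with at least 50 reads for the set. Among the fast genes per kb, Tnnt3 made up 24.6% to 29.9% in the 8 TA libraries and 17.2% to 20.2% in the 4 bone libraries, and these ranges did not meet. Tnnc2 made up 39.1% to 45.2% in TA and 49.4% to 58.0% in bone, and Tnni2 27.8% to 32.9% and 24.8% to 30.4%. The libraries were prepared from separately extracted RNA, and Tnnc2 and Tnnt3 share exon bases with genes on the opposite strand. The gap is therefore a description with no test. Among the slow genes in TA, in 6 libraries, Tnnt1 led with 43.3% to 64.8%, and Tnni1 was lowest with 10.1% to 19.0%. In bone 2 libraries had at least 50 reads for the slow set. Tnni1 made up 57.5% in BAY replicate 1 (52 reads for the set) and 14.3% in VEH replicate 1 (330 reads). Across all 8 bone libraries, most of them under that limit, Tnni1 was the largest slow share in 6, from few reads.

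In bone the mean log2 value was higher in BAY for all 11 fast fibre genes outside troponin, as it was for 31502 of all 38933 bone genes, and the groups overlapped for each of the 11. By limma 3 of 11 were called (Casq1, Myl1 and Myoz1, for calcium storage, the fast light chain and the Z disc), beside 0.545% of all genes called higher, and the median log2 fold change was 3.42. Voom on recovered reads called 1 of 11, Myl1, beside 3.68% of all bone genes, and gave unadjusted P = 0.0761 for Casq1 and 0.0557 for Myoz1. Myl1 was at 63.4, 11.2, 1.77 and 4.37 CPM in VEH and at 311, 364, 21.9 and 18.3 CPM in BAY, with overlapping groups (limma adjusted P = 0.887, exact permutation P = 0.114). Of the 12 thin filament partners 1 was called, Tmod4, the skeletal tropomodulin, at 9.21 CPM in VEH replicate 1 and 0 in the other 3 VEH libraries, and at 46.5, 46.3, 4.07 and 2.15 CPM in BAY. Among the slow fibre genes 0 of 7 were called, with a median of 0.47, and among the regulators 0 of 12, with a median of 0.43. Eno3, the muscle enolase, was the 1 of 6 muscle markers called by limma (voom unadjusted P = 0.0837), whereas voom called 1 of 6, Ttn.

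The osteoblast and osteocyte markers were all lower in BAY (10 of 10, median log2 fold change -1.27, 0 called). Erythroid markers were lower for 5 of 5 (59.6 to 336 CPM in BAY, 86.9 to 620.2 CPM in VEH, summed) and leukocyte markers for 4 of 5, with 0 called in either list. The part of these shifts in the bone troponin values was not tested. Cardiac troponin T, Tnnt2, was at 5.61, 77.3, 9.57 and 42.2 CPM in VEH and at 49.2, 33.1, 20.9 and 74.2 CPM in BAY. Its lowest values were in VEH replicates 1 and 3, the bone libraries with the most reads on genes, and it did not follow the muscle markers.

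Genes with the most similar pattern were found by Pearson's r over the 8 libraries of a tissue, with the mean log2 value of the 3 fast or 3 slow genes, among protein-coding genes averaging 10 CPM or more. In muscle, the 5 most like the slow set were Hcfc1r1 (r = 0.98), Mrps9 (0.97), Mast4 (0.96), Klhl21 (0.96) and Trappc5 (0.95), of 5278 candidates. The 5 most like the fast set were Pdzrn3 (0.97), Myoz1 (0.97), Bms1 (0.96), Hrc (0.94) and Cwc22 (0.93). In bone, those most like the fast set were mt-Co3 (0.96) and the muscle genes Actn3 (0.95), Acta1 (0.94), Ckmt2 (0.93) and Mybpc2 (0.93), of 13151 candidates. The bone slow set was most like mt-Atp6 (0.95), Pim3 (0.87), mt-Nd5 (0.85), mt-Co3 (0.85) and mt-Co1 (0.84). In bone, members listed at 0 entered at the log2 value of the small deposited offset, so VEH replicate 4 and BAY replicate 4 set the low points of both bone profiles and weigh on the order of these genes. These are the highest r of all candidates, and the list is a description with no test.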

How the data were processed

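Bulk RNA-seq libraries of TA muscle and cortical bone were analysed, 4 per tissue and treatment (VEH, BAY), grouped by their labels. Per the labels and the study's methods, the authors aligned reads with STAR 2.7.8a to mm39, counted them per Ensembl gene in Partek, and deposited log2 values of CPM plus a small offset (0.0004 in muscle, 0.0001 in bone). The muscle kit was stranded and selected polyadenylated RNA; for bone, TRIzol extraction is stated. Reads per gene were recovered from the steps between low log2 values: 81.3% to 83.5% of muscle and 86.3% to 88.5% of bone values up to 50 reads came out whole (within 0.02).

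The members and gene lists were chosen with earlier results of these data known. The named genes were the members, the genes of those lists and the 5 genes most similar to each set. BAY was compared with VEH per tissue by limma 3.58.1 in R 4.3.3 (mean-variance trend, Benjamini-Hochberg over all genes), in place of the authors' voom test on counts, which was run on recovered reads as an alternative added after the data were seen. A call was an unadjusted P under 0.05 with a fold of at least 2. Ratios used CPM per kb, with the median exon length of a gene's CCDS transcripts (1173 bases for Tnnt3, 1058 for Tnnt1, 786 for Tnni2, 1081 for Tnni1, 752 for Tnnc2 and 721 for Tnnc1). That length was chosen after the values were seen and shifts a pair's ratio equally in every library. Ratios were tested by two-sided exact permutation of 4 against 4 libraries (scipy 1.17.1). Scripts were tested on simulated data. Gene coordinates are those of the files, 1-based. Same-numbered libraries of VEH and BAY did not deviate together (correlation of deviations -0.09 to 0.01 in muscle, -0.11 to 0.19 in bone), so libraries were not paired.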

Additional observations from a re-analysis of the deposited data

Results flagged for a closer look

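Of the 32 groups of 4 libraries examined for a library far from the rest of its group, 5 had one, by Dixon's test of the gap to the nearest library at the 95% level. Genes were examined on CPM and ratios on log2 values. Chance alone gives about 1 in 20 such groups where the values are normally distributed, which was not tested. A flag on CPM need not hold on log2 values. In bone, VEH replicate 1 stood far above the other 3 VEH libraries for Tnnc2 (705 CPM, against 0 to 12.9), Tnnt3 (326 CPM, against 0.728 to 4.60), Tnni2 (315 CPM, against 1.42 to 12.0) and Tnnc1 (15.0 CPM, against 0.709 to 0.921). These are 4 readings of 1 library, the one with the highest muscle marker sum of its group and the most reads on genes. In muscle, the log2 ratio of Tnni2 to Tnni1 in BAY replicate 2 was 13.83, against 11.05 to 11.50 in the other 3 BAY libraries, and it rests on 2 reads of Tnni1.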

How the results depend on the processing

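Of 102 recomputed differences of the 6 genes in muscle (17 alternatives), 96 kept direction and side of the threshold and 6 turned direction, none of them called. In bone 80 of 102 kept both, 11 turned direction and 11 met the rule for a call. For the ratios, 35 of 39 in muscle and 36 of 39 in bone kept both and the rest turned direction. The cause of these changes was not tested. Dividing by the exon union (chosen after seeing the data) or by no length left every ratio difference as it was, by construction.

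The number of muscle genes called, 510, was 52 on log2(CPM + 1), 193 with a filter at a mean of 1 CPM and 700 with voom, and 448 to 567 leaving out 1 library at a time. The number in bone became 82 with the filter, 443 with median centring, 705 with quantile normalization, 408 without a trend, 901 with array weights (whose estimate stopped short of convergence in 1 tissue) and 1433 with voom, and 115 (without VEH replicate 3) to 1116 (without VEH replicate 2) leaving out 1 library. It was also lower without VEH replicate 4 (130), BAY replicate 1 (157) and BAY replicate 2 (155). Of the 249 genes called in bone by limma, 212 were higher in BAY, against 295 of 443 with median centring, 250 of 705 with quantile normalization and 1431 of 1433 with voom. In muscle it was 280 of 510, and 489 of 700 with voom. The replicate block gave 489 calls in muscle and 305 in bone, and it called Tnni2 in bone at the same log2 fold change of 3.51 by limma. In muscle every replicate block value of the 6 genes and of the ratios kept its side of the threshold, and with 4 pairs the exact sign-flip test cannot go below P = 0.125.

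In muscle, Tnnc2 was at a log2 difference of -0.0093 with array weights. Leaving out 1 library, it ran from -0.13 to 0.22, Tnnt3 from -0.0427 to 0.15 (both negative without BAY replicate 4), Tnnt1 from -0.71 to 0.25 (positive without VEH replicate 2 or 3) and Tnnc1 from -0.68 (without VEH replicate 1) to 0.94. Tnni1 stayed negative, from -1.21 (without VEH replicate 1) to -0.0282 (without BAY replicate 2). The ratio difference for Tnnc2/Tnnc1 was 0.0888 with 1 CPM added and -0.84 to 0.74 leaving out 1 library (positive without VEH replicate 1 or BAY replicate 3), and for Tnnt3/Tnnt1 -0.16 (without VEH replicate 3) to 0.74. For Tnni2/Tnni1 it stayed positive, from 0.23 (without BAY replicate 2) to 1.40 (without VEH replicate 1).

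In bone, median centring gave -0.51 for Tnnt3 and -0.59 for Tnni1, and quantile normalization -0.18 for Tnni1. Leaving out 1 library, Tnnt3 ran from -2.06 to 5.83 (negative without VEH replicate 3 or 4 or BAY replicate 1, 2 or 3), Tnnc2 from -1.40 (without VEH replicate 4) to 8.88, Tnnt1 from -0.21 (without VEH replicate 4) to 5.76 and Tnni1 from -0.0897 (without BAY replicate 4) to 0.63. The ratio difference for Tnnt3/Tnnt1 was 2.65 with 1 CPM added, 1.44 with 0.1 CPM added and -5.97 to 1.96 (without BAY replicate 4) leaving out 1 library. On log2(CPM + 1), limma called all 3 fast genes in bone: Tnnt3 (3.16), Tnni2 (3.28) and Tnnc2 (3.11). Tnni2 was also called on log2(CPM + 0.1) (3.48) and with array weights (6.32). Their groups overlapped in each of these, and exact tests with 4 libraries a group gave P = 0.2 or more on the deposited scale.

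Depth limits the slow genes, which had 2 to 169 reads in muscle, and libraries listed at 0 limit every bone value below about 3 reads.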
